A study of Mus musculus with 8 samples.

Results

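FOXO and FOXA proteins are transcription factors that bind DNA through a forkhead domain. FOXO1 drives hepatic gluconeogenesis in the fasted state, and insulin acts through AKT to keep FOXO proteins phosphorylated and out of the nucleus. FOXA proteins open chromatin in hepatocytes and maintain liver gene expression, and FOXA2 has also been linked to fasting metabolism. The 3 FOXO genes Foxo1, Foxo3 and Foxo4 and the 3 FOXA genes Foxa1, Foxa2 and Foxa3 made up the 6 genes described here, of 21532 in the table of liver RNA. They were chosen by gene symbol with earlier results of the same contrast known, so the difference in each of them between the groups is given as a description, with no p value. The comparison asked whether a difference in Foxo1 mRNA between control and AF1 peptide-treated mice was shared by its relatives.

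RNA was taken from the livers of 8 male mice of the db/db strain. These animals carry a defective leptin receptor and grow obese and diabetic, and no lean or wild-type liver stood beside theirs. From 8 weeks of age, 4 mice received control and 4 received AF1 peptide, each at 5 mg/kg body weight in 2 retro-orbital injections per week for 5 weeks. AF1 peptide is a synthetic fragment of estrogen receptor α fused to a TAT sequence for entry into cells, and what the control consisted of is not given in the sources used here. Each frozen liver gave 1 stranded mRNA library.

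The deposited values were normalized read counts, and whole reads could be recovered from them. Total reads ranged from 35260283 to 45117528 in control mice and from 23031880 to 43978158 with AF1 peptide. AF1 peptide replicate 1 stood apart from the other 7 mice. It lay at 74.2 on the first principal component (39.3% of the variance), with the others between -21.8 and 2.33. The share of reads from 13 mitochondrial genes was 20.8% in that mouse, 34.3 to 37.8% in replicates 2 to 4 of its group and 22.4 to 34.3% in the controls. Each of 6 Kupffer cell and macrophage markers was lower in that mouse than in every control, and their summed normalized counts were 2016 beside 4544 to 5621. The 6 hepatocyte markers were split, with Cyp2e1, Serpina1a and Tat higher and Alb, Apoa1 and Ttr lower than in every control, and their sum, mostly Alb, was 1772300 beside 2436800 to 2603000. No marker in the table was at 0 in all mice. Results that move with this mouse are given with and without it, and the part of these differences in the results was not tested. In bulk liver, fewer cells of a type and less RNA per cell cannot be told apart.

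The promoters of Foxo1 and Foxa1 are shown first, because Foxo1 was the member with separated groups and Foxa1 the only one of the 5 matched members with a forkhead motif in this window. Those of G6pc and Igfbp1, well-known FOXO target genes in liver, are shown because results below turn on them. G6pc encodes the glucose-releasing enzyme glucose-6-phosphatase and Igfbp1 a secreted protein that binds insulin-like growth factors. The sequences are the 250 bases before the transcription start in RefSeq (GRCm38.p6), written 5′ to 3′ on the strand of the gene, and capitals mark motif letters. The motifs searched on both strands were GTAAACA, the core bound by forkhead proteins, and CAAAACA, a form of the insulin response element bound by FOXO proteins. They do not overlap one another in the promoters shown.
Foxo1 (chr3:52268087-52268336, plus strand): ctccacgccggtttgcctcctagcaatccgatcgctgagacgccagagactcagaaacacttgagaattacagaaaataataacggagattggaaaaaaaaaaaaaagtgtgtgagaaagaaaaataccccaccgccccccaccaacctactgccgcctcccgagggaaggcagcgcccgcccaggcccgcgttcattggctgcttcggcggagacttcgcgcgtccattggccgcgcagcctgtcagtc
Foxa1 (chr12:57546112-57546361, minus strand): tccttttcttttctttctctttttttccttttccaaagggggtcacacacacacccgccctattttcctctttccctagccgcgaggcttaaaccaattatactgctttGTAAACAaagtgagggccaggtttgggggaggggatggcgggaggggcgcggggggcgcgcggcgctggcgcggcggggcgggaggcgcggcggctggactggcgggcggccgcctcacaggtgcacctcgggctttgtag
G6pc (chr11:101367466-101367715, plus strand): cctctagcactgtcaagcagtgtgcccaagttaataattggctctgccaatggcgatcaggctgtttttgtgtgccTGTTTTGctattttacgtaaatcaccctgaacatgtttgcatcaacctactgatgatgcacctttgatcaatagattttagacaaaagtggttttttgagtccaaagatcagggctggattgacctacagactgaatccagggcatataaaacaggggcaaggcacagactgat
Igfbp1 (chr11:7197537-7197786, plus strand): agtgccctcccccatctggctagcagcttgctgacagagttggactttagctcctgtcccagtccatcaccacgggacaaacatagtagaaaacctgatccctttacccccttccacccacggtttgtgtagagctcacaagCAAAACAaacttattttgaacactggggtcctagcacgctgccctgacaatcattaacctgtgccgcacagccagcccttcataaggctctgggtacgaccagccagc

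GTAAACA was present in 3.17% and CAAAACA in 5.56% of 32851 mouse promoters of this length, and either in 8.51%. Among the members, 7 promoters of 5 genes were found, and 1 of them held a motif, in Foxa1 at bases -141 to -135 from the start. The Foxo1 promoter held neither string in this window. Among the 26 FOXO target genes described below, 22 were matched (24 promoters) and 5 held a motif. These were G6pc (-174 to -168, on the opposite strand), Igfbp1 (-108 to -102), Irs2, Ccng2 and Txnip. A match to these letters is a description of the sequence and not a binding site.

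Foxo1 mRNA was higher in the liver of every AF1 peptide-treated mouse than in any control liver. Its normalized counts were 525, 502, 485 and 509 in control mice (replicates 1 to 4, in this order here and below) and 932, 658, 659.8 and 608 in AF1 peptide-treated mice. The control mean was 505 ± 16.4 (SD, n = 4) and the AF1 peptide mean 714 ± 147 (SD, n = 4), 1.39-fold higher (log2 fold change 0.48, SE 0.13, on log2 of the count plus 1). Here and below, the SE of a gene's log2 fold change is moderated in limma toward genes of similar abundance. The controls lay close together, with a coefficient of variation of 3.25%, whereas that of the AF1 peptide group was 20.6%, with replicate 1 far above the other 3. Without that mouse the AF1 peptide mean was 642 ± 29.3 (SD, n = 3) and the log2 fold change 0.34. The groups still did not overlap, since the other 3 mice held 608 to 659.8.

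Foxo3, which acts beside Foxo1 in hepatic glucose and lipid metabolism, was higher on average but with overlapping groups. Control mice held 829, 761, 771 and 703 and AF1 peptide-treated mice 1100.2, 1052, 783 and 755 normalized counts. Replicates 1 and 2 of the AF1 peptide group lay above every control, and replicates 3 and 4 lay within the control range. The means were 766 ± 51.4 and 922 ± 179 (SD, n = 4 each), a log2 fold change of 0.25 with an SE of 0.14, and 0.16 without AF1 peptide replicate 1.

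Foxo4 differed less. Normalized counts were 504, 561, 556 and 531 in control and 615, 659, 501 and 561 in AF1 peptide-treated mice, of which 2 lay above every control and 1 just below the lowest. With means of 538 ± 26.4 and 584 ± 68.5 (SD, n = 4 each), the log2 fold change was 0.11 and its SE, also 0.11, was as large. Thus the 3 FOXO means were all higher with AF1 peptide, in the order Foxo1, Foxo3, Foxo4, and only in Foxo1 did the 2 groups separate.

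Foxa1 was lower in 1 AF1 peptide-treated mouse and within or above the control range in the other 3. It had 260.4, 279, 240.0 and 260.4 normalized counts in control and 159, 307, 266 and 248 in AF1 peptide-treated mice. The lowest value belonged to replicate 1, the same mouse that had the highest Foxo1. Means were 259.9 ± 15.8 and 245 ± 62.5 (SD, n = 4 each), giving a log2 fold change of -0.12 with an SE of 0.19, and 0.07 without that mouse, so that 1 library set its direction.

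Foxa2, the most abundant of the 6 per length of exon, was the only FOXA gene with a higher mean. Control mice had 816, 623, 739 and 799.8 and AF1 peptide-treated mice 778, 942, 995 and 843 normalized counts. Replicates 2 to 4 of the AF1 peptide group were above every control, and replicate 1, in which Foxo1 was highest, was inside the control range. The means were 745 ± 87.3 and 889.7 ± 97.5 (SD, n = 4 each), a log2 fold change of 0.26 with an SE of 0.12, and 0.32 without replicate 1.

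Foxa3, which is expressed in adult liver beside Foxa1 and Foxa2, showed values on both sides of the controls. The counts were 409, 325, 430.2 and 378 in control and 505, 268, 420.1 and 295 in AF1 peptide-treated mice. One AF1 peptide-treated mouse lay above every control and 2 lay below every control. Means of 385 ± 45.7 and 372 ± 111 (SD, n = 4 each) gave a log2 fold change of -0.09 with an SE of 0.20, which was -0.25 without AF1 peptide replicate 1 and 0.05 or 0.01 without AF1 peptide replicate 2 or 4.

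Counting the members, 1 of 6 (Foxo1) had every AF1 peptide-treated mouse above every control, and 0 of 6 had every one below. Among the 15989 genes tested, whose normalized counts averaged 10 or more, 2.05% lay wholly above and 1.85% wholly below the controls in this way. All 6 members passed that filter. Because the members were chosen with this contrast known, nothing is read from the count.

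**Figure D1:**
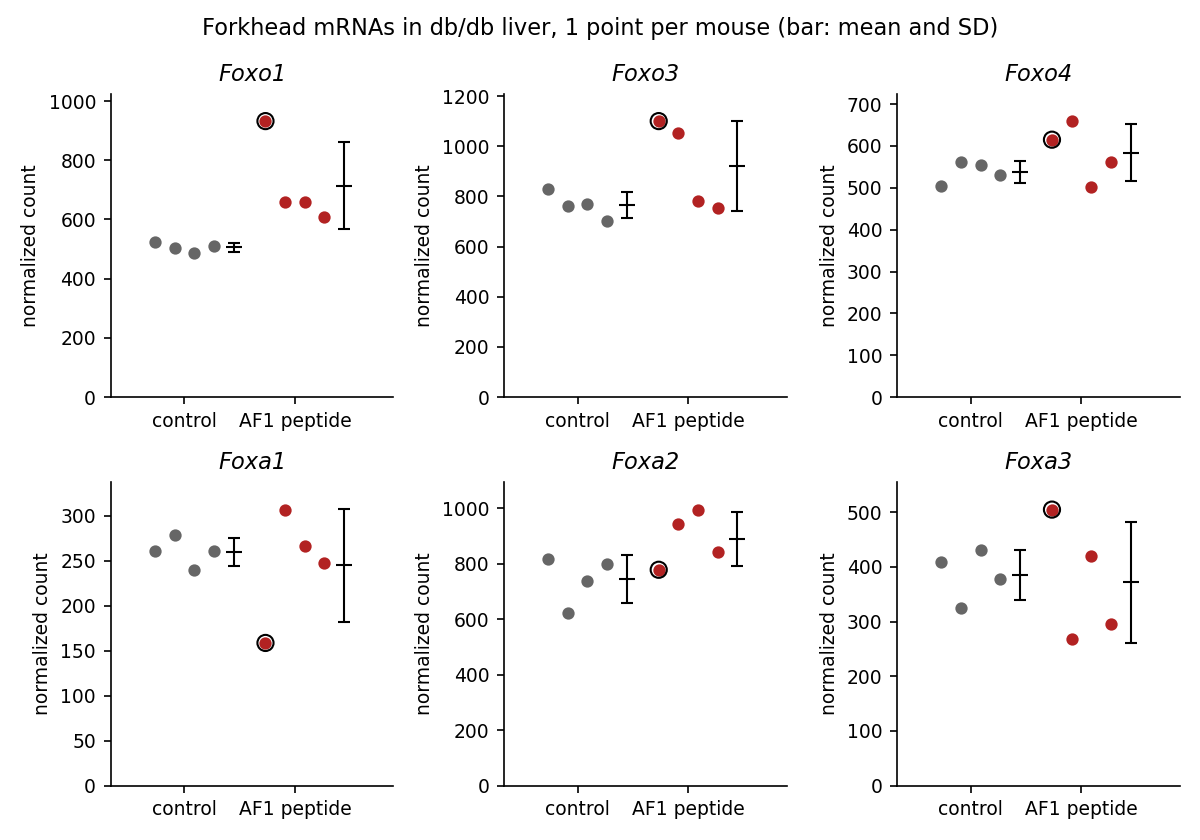
Normalized counts (vertical axes, from 0) of the 6 FOXO and FOXA genes in control (grey) and AF1 peptide-treated (red) db/db livers, 1 point per mouse, with the mean and SD of 4 mice at the right of each group and AF1 peptide replicate 1 ringed. Only for Foxo1 do the 4 AF1 peptide-treated mice (608 to 932) all sit above the 4 control mice (485 to 525).

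The relatives differed from Foxo1 in their level per length as well. Dividing by exon length (a union of 8665 bases for Foxo1 to 2037 for Foxa3, in GENCODE M21), the level in control mice was lowest for Foxo1, at 58.3 ± 1.89 normalized counts per kb (SD, n = 4). It was 78.1 ± 4.75 for Foxa1, 101 ± 6.79 for Foxo3, 154 ± 7.58 for Foxo4, 189 ± 22.4 for Foxa3 and 314 ± 36.8 for Foxa2. The ranges of neighbours in this order did not overlap in control mice, except for Foxo4 (144 to 161) and Foxa3 (159.5 to 211). In AF1 peptide-treated mice Foxo1 stood at 82.4 ± 17.0 per kb and Foxa1 at 73.6 ± 18.8, and their ranges, 70.2 to 108 and 47.7 to 92.2, overlapped. Foxo3 was at 122 ± 23.6, Foxo4 at 168 ± 19.7, Foxa3 at 183 ± 54.3 and Foxa2 at 375 ± 41.1 per kb in this group.

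Per kb, Foxo1 made up 18.6 ± 0.83% (SD, n = 4) of the summed FOXO level in control mice and 22.2 ± 2.75% in AF1 peptide-treated mice. The share ranged from 17.7 to 19.3% and from 18.8 to 25.1%, so the groups overlapped. Foxo4 held 49.2 ± 2.17% and 45.3 ± 3.27%, and Foxo3 32.2 ± 1.83% and 32.6 ± 1.93%. Within the FOXA family, Foxa2 supplied 53.9 ± 2.07% in control and 59.5 ± 4.92% in AF1 peptide-treated mice. Foxa2 was thus the main FOXA mRNA and Foxo4 the main FOXO mRNA in both groups on this scale.

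**Figure D2:**
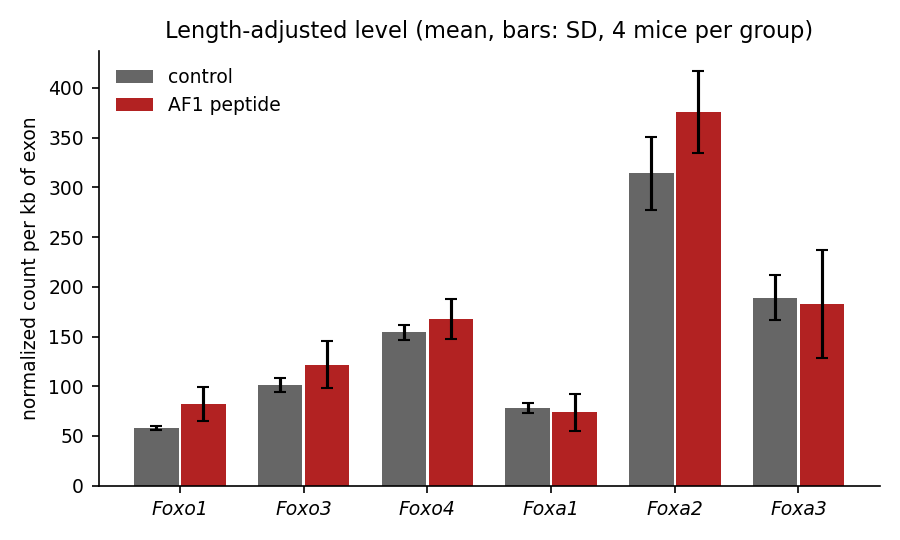
Normalized count per kb of exon (vertical axis) of each FOXO and FOXA gene, as bars for the mean of 4 control (grey) and 4 AF1 peptide-treated (red) mice, with SD error bars. Foxa2 is highest in both groups (314 and 375), and Foxo1 is lowest in control mice (58.3).

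The question of a shared change was also put within each mouse, as the ratio of Foxo1 to a relative, in which the scaling of the library cancels. These ratios use the same Foxo1 values and are a description as well. Foxo1 over Foxo3 was 0.63 to 0.724 in control mice and 0.847, 0.625, 0.843 and 0.805 in AF1 peptide-treated mice. Thus 3 of the 4 mice had a ratio above every control, and replicate 2 had the lowest of all. The mean log2 ratio was 0.23 higher with AF1 peptide (SE 0.11, for ratios from the spread of these mice alone). Foxo1 over Foxo4 lay at 0.874 to 1.04 in control mice and at 0.997 to 1.52 with AF1 peptide, with 3 mice above every control and a difference of 0.37 in the log2 ratio (SE 0.15).

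Against the FOXA genes the ratio was higher in all 4 AF1 peptide-treated mice for Foxa1 and Foxa3 but not for Foxa2. Foxo1 over Foxa1 was 1.80 to 2.02 in control mice and 2.14 to 5.88 with AF1 peptide (log2 difference 0.60, SE 0.34), where replicate 1 held 5.88 and the other 3 lay between 2.14 and 2.48. Foxo1 over Foxa3 was 1.13 to 1.55 and 1.57 to 2.45 (log2 difference 0.57, SE 0.16). Foxo1 over Foxa2 was 0.637 to 0.806 in control mice, and only replicate 1 (1.20) lay above that range, with 0.663 to 0.721 in the other 3. Those 3 mice thus lay inside the control range, but control replicate 2 alone set its upper end (0.806). The other controls lay at 0.637 to 0.656, below each of those 3 mice.

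**Figure D3:**
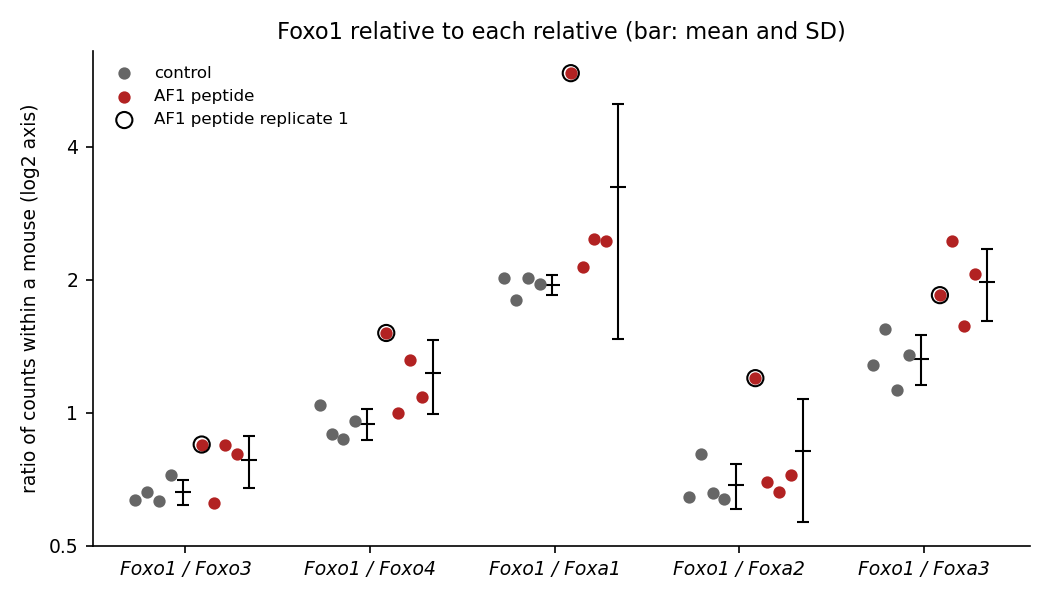
Ratio of the Foxo1 normalized count to that of each relative within a mouse (vertical log2 axis), for control (grey) and AF1 peptide-treated (red) mice, with the mean and SD of 4 mice and AF1 peptide replicate 1 ringed. The groups separate for Foxa1 (1.80 to 2.02 against 2.14 to 5.88) and Foxa3 (1.13 to 1.55 against 1.57 to 2.45) and overlap for Foxo3, Foxo4 and Foxa2.

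Across the 8 mice, the log2 counts of Foxo1 were compared with those of the 5 relatives and 26 FOXO target genes (31 pairs, two-sided exact permutation tests of Pearson's r, Benjamini-Hochberg adjusted over the pairs). The points share the 2 groups and their libraries. The pairings were permuted across both groups, so the known group difference in Foxo1 enters r and its p value. These p values therefore do not measure a relation apart from the groups. None of the pairs passed (0 of 31 adjusted p values under 0.05, the smallest being 0.236, and 6 unadjusted ones). For Foxo3, r was 0.79 (exact permutation p = 0.0176, adjusted p = 0.236) and Spearman's rho 0.62 (exact permutation p = 0.115, adjusted p = 0.509). It was 0.71 without the 2 mice farthest from the Foxo1 median, AF1 peptide replicates 1 and 3, and 0.55 without replicate 1 alone. Foxa1 had r = -0.66 over 8 mice and 0.55 without those 2 mice, and Foxa3 had 0.28 and -0.86, so that their relation to Foxo1 rested on single mice. Foxo4 had 0.49 and 0.72, and Foxa2 0.38 and 0.77. Without replicate 1 alone, r was 0.28 for Foxo4, 0.47 for Foxa1, 0.84 for Foxa2 and -0.44 for Foxa3. As deviations from the group means, with replicate 1 included, r was 0.69 for Foxo3 and 0.24 for Foxo4. On that scale it was -0.84 for Foxa1, -0.37 for Foxa2 and 0.71 for Foxa3.

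Other forkhead genes gave a view of the wider family. Beside the 6 members, 19 forkhead genes were in the table and 12 passed the filter, of which 7 had a log2 fold change above 0 and 5 below, with a median of 0.07 beside -0.01 for all genes tested. With limma, 0 of 12 were called higher or lower (past 1.3-fold with an unadjusted p value below 0.05), where 1.79% of all 15989 genes tested were called higher and 1.9% lower. None of the 12 had an unadjusted p value under 0.05 (0 genes). No gene of the table passed an adjusted p value of 0.05 (0 genes, the smallest adjusted p being 0.763 in limma with Benjamini-Hochberg adjustment), while 506 genes with higher and 484 with lower values had an unadjusted one under 0.05. On the recovered reads, 0 genes passed in edgeR and 3 in DESeq2. The other 7 forkhead genes fell under the filter, with no value above 18.1 in any mouse, and Foxo6 had no row in the table.

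Foxp1, a forkhead repressor that also acts in liver, had the smallest p value of the 12. Its counts were 292, 342, 463 and 404 in control and 365, 521, 561 and 495 in AF1 peptide-treated mice, with overlapping groups (log2 fold change 0.37, SE 0.17, limma adjusted p = 0.763). Without AF1 peptide replicate 1 it was called higher, with a log2 fold change of 0.51. Foxn3, a repressor of the same family, had log2 fold change 0.18 (SE 0.11), and Foxq1 had 0.33 (SE 0.22). Foxp1 was also called higher without control replicate 3, and Foxq1 without control replicate 4. Foxk1, which acts in insulin-regulated glycolysis and autophagy, stood at -0.19 and Foxm1, a factor of dividing cells, at -0.14, neither with an unadjusted p value under 0.05. Without AF1 peptide replicate 1 the value of Foxm1 was 0.06, so that 1 library set its direction.

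**Figure D4:**
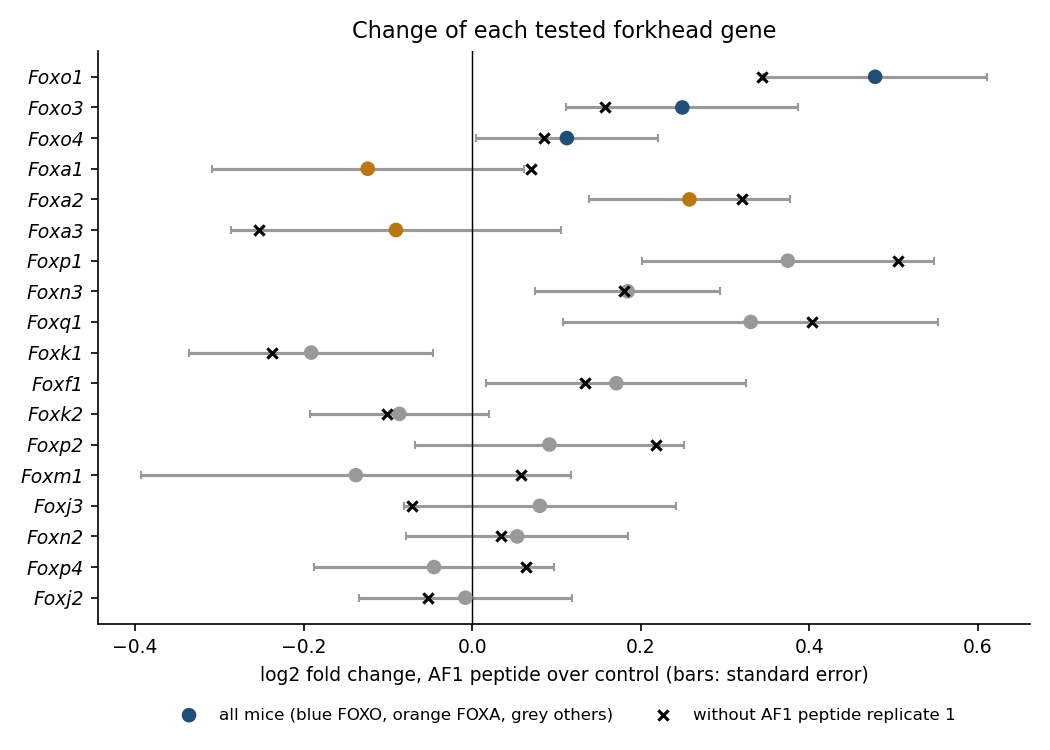
Log2 fold change of AF1 peptide over control (horizontal axis, bars are standard errors) for the 6 members (blue FOXO, orange FOXA) and the 12 other forkhead genes tested (grey), with crosses for the value without AF1 peptide replicate 1. Foxo1 has the highest value of the 18 with all mice (0.48), and Foxp1 (0.51) the highest without replicate 1.

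Of a list of 26 genes known as FOXO targets, none was called between the groups. The list of 26 held enzymes and regulators of glucose and lipid metabolism, insulin signaling, antioxidant defence, cell cycle and autophagy. All 26 were tested, 12 had a log2 fold change above 0 and 14 below, and the median was -0.0048 beside -0.01 for all genes. With limma, 0 were called higher and 0 lower, where 1.79% of all genes tested were called higher and 1.9% lower. Of the 26, 1 had an unadjusted p value under 0.05. Without AF1 peptide replicate 1, 2 of 26 were called, 1 higher and 1 lower, the latter being G6pc, where 2.86% of all genes tested were called higher and 3.07% lower. Sesn3 was called lower without control replicate 2, and Ppargc1a higher without AF1 peptide replicate 3.

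Among the gluconeogenic targets, G6pc had normalized counts of 9263, 8440.4, 8089.9 and 4188 in control and 11661, 3216, 4794 and 6502 in AF1 peptide-treated mice. The mouse with the most Foxo1 mRNA, replicate 1, also had the most G6pc, while the other 3 had less than 3 of the 4 controls. The log2 fold change was -0.29 (SE 0.37), and -0.63 without replicate 1 (called lower by limma). Pck1, the cytosolic enzyme that commits carbon to gluconeogenesis, held 47452, 36742, 36108 and 33217 in control and 77425, 45539, 20589 and 36268 in AF1 peptide-treated mice. Again replicate 1 was far above all others, and the log2 fold change of 0.08 (SE 0.34) became -0.23 without it. Ppargc1a, a coactivator of FOXO1 in this program, had 110.4, 125, 126 and 129.8 in control and 324, 205, 94.7 and 129 in AF1 peptide-treated mice. Its log2 fold change was 0.46 with all mice (SE 0.32) and 0.15 without replicate 1.

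Igfbp1 and Irs2, which insulin represses through FOXO1, were spread widely among AF1 peptide-treated mice. Igfbp1 had 404, 295, 494 and 367 normalized counts in control and 1180.5, 119, 545 and 204 in AF1 peptide-treated mice, with 2 of the latter above and 2 below every control. Its log2 fold change was -0.12 (SE 0.58), and -0.69 without replicate 1. Irs2, the insulin receptor substrate, had 199, 201, 183 and 172 in control and 596, 197, 219.9 and 176 in AF1 peptide-treated mice. Outside replicate 1 the AF1 peptide-treated mice lay at 176 to 219.9 beside 172 to 201 in controls, and the log2 fold change fell from 0.46 (SE 0.32) to 0.07 without that mouse.

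Pdk4 encodes a kinase that shuts pyruvate dehydrogenase in fasting. Pdk4 had 244, 249, 297 and 252 in control and 65.3, 190.0, 296 and 268 in AF1 peptide-treated mice, lowest where Foxo1 was highest (log2 fold change -0.55, SE 0.39, and -0.07 without replicate 1).

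The target with the smallest p value was Atg14, which encodes a subunit of the kinase complex that starts autophagosomes. It had 350.2, 333, 355 and 358 in control and 379.8, 440.2, 402 and 427 in AF1 peptide-treated mice, and the groups did not overlap. The difference of 0.24 on the log2 scale (SE 0.10, limma adjusted p = 0.763) stayed under 1.3-fold. Sesn3, an inhibitor of mTORC1 signaling, had a log2 fold change of -0.51 (SE 0.25), and Trib1, a pseudokinase that controls hepatic lipid synthesis, 0.18 (SE 0.10).

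**Figure D5:**
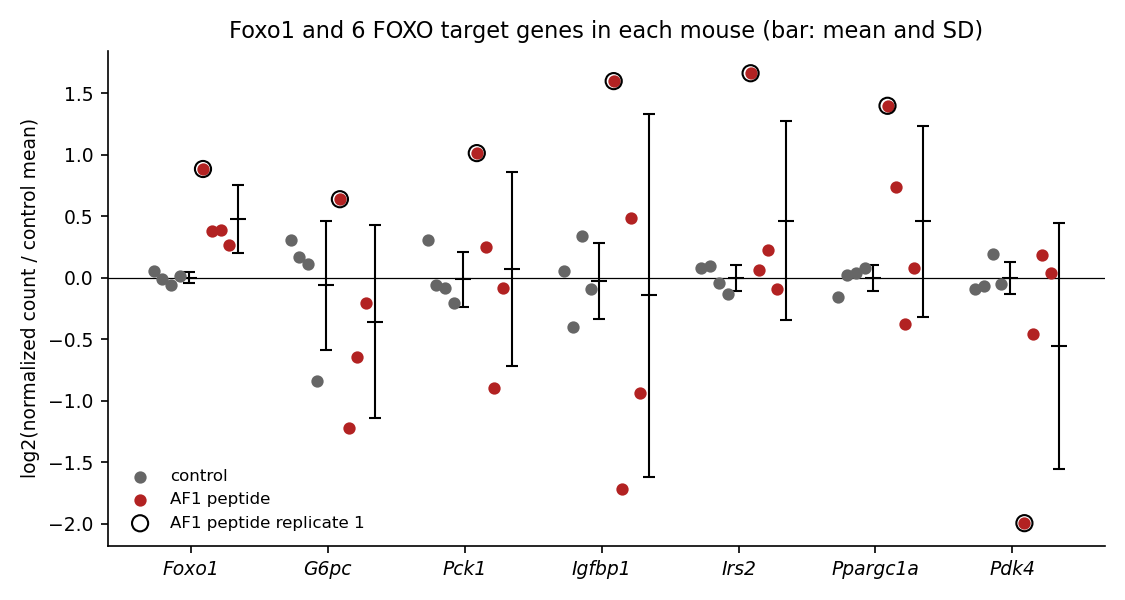
Log2 of the normalized count over the control mean (vertical axis) for Foxo1 and 6 FOXO target genes in each control (grey) and AF1 peptide-treated (red) mouse, with the mean and SD of 4 mice and AF1 peptide replicate 1 ringed. Foxo1 is above 0 in all 4 AF1 peptide-treated mice, whereas each of the 6 targets has AF1 peptide-treated mice on both sides of 0, and replicate 1 is the highest mouse for G6pc, Pck1, Igfbp1, Irs2 and Ppargc1a and the lowest for Pdk4.

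Across mice, 15 of the 26 targets had a positive r with Foxo1 and 5 had an unadjusted exact permutation p value under 0.05, of which 0 passed adjustment. For Irs2, r was 0.86 (exact permutation p = 0.0188, adjusted p = 0.236) and Spearman's rho 0.55 (exact permutation p = 0.171, adjusted p = 0.663). It fell to 0.10 without AF1 peptide replicates 1 and 3, so the relation rested on those mice. Pdk4 had r = -0.84, rho = -0.48 and, without those 2 mice, r = -0.70, and for Ppargc1a these values were 0.75, 0.29 and 0.76. Without AF1 peptide replicate 1 alone, however, r was -0.29 for Pdk4, 0.21 for Ppargc1a and 0.44 for Irs2. The r of these 3 genes thus depended on which mice were left out. Ccng2, a cyclin G, had r = -0.80 with 8 mice and 0.15 without the 2, and Sesn3 had -0.74 and -0.76, and -0.67 without replicate 1 alone. As deviations from the group means, with replicate 1 included, r was 0.98 for Irs2, -0.95 for Pdk4 and 0.77 for Ppargc1a. On that scale it was -0.97 for Ccng2 and -0.27 for Sesn3.

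Genes that act on FOXO proteins, from the insulin receptor to AKT, the 14-3-3 proteins that hold phosphorylated FOXO in the cytoplasm, and enzymes that acetylate or degrade it, made up a list of 38. It shares Insr and Irs2 with the targets. All 38 were tested, 15 had a log2 fold change above 0 and 23 below, and the median was -0.04. With limma, 0 were called higher and 0 lower, where 1.79% of all genes tested were called higher and 1.9% lower. Of the 38, 0 had an unadjusted p value under 0.05. The smallest p values were those of the 14-3-3 genes Ywhah (log2 fold change -0.27, SE 0.13) and Ywhab (-0.26, SE 0.13) and of Ctnnb1, which encodes β-catenin, a FOXO partner (-0.25, SE 0.14). Another 14-3-3 gene, Ywhaz, had -0.10 (SE 0.10), and -0.05 without AF1 peptide replicate 1.

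Within the insulin pathway, Akt2, the main hepatic AKT, had 1739.6, 1699.7, 1639.8 and 1672 normalized counts in control and 2066, 1812, 1755 and 1809 in AF1 peptide-treated mice. The groups did not overlap, but the difference was small (log2 fold change 0.14, SE 0.09, and 0.09 without replicate 1). Akt1 (-0.04, SE 0.11) and Insr, the insulin receptor (0.09, SE 0.11), differed less. Irs1, the other main substrate of that receptor in liver, had 316, 227, 243 and 278 in control and 474, 190.0, 166 and 203 in AF1 peptide-treated mice, highest of all in replicate 1 and below every control in the other 3. Its log2 fold change was -0.17 (SE 0.29) and -0.51 without replicate 1 (called lower by limma). Sgk1, a kinase that phosphorylates FOXO proteins, had 359, 265, 307 and 343 in control and 650.4, 139, 256 and 205 in AF1 peptide-treated mice, in the same pattern, with log2 fold changes of -0.27 (SE 0.38) and -0.70 without replicate 1 (called lower by limma). With Pdpk1, which encodes the kinase that activates AKT (-0.30, SE 0.17, and -0.42 without replicate 1), these were the 3 of 38 called without that mouse, all lower, beside 3.07% of all genes tested called lower.

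For FOXA, a list of 29 genes held partner factors of hepatocytes, such as Hnf4a, and genes that FOXA proteins bind or help to express. Of these, 28 were tested, 15 above 0 and 13 below, with a median log2 fold change of 0.01. With limma, 1 was called higher (Crtc2) and 0 lower, beside 1.79% of all genes tested called higher and 1.9% lower. Crtc2, a coactivator of CREB in gluconeogenesis that also works with FOXA2, had 1331, 1075, 1327 and 1187 in control and 2339, 1534, 1443 and 1389 in AF1 peptide-treated mice. All 4 lay above the controls (log2 fold change 0.42, SE 0.16, limma adjusted p = 0.763). Without replicate 1 the value was 0.25, no longer past 1.3-fold, and the gene was also not called without control replicate 2 or 4, with each gene's own variance, or with libraries rescaled to equal totals. Under that rescaling the list's single call was lower (Acadm) in place of higher.

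Of the partner factors, Hnf4a, a nuclear receptor that defines the hepatocyte, had a log2 fold change of 0.03 (SE 0.12), and -0.04 without AF1 peptide replicate 1. Cebpa, a factor of its metabolic genes, had -0.12 (SE 0.14), and -0.04 without that mouse. Classical FOXA-dependent genes were Alb, which encodes albumin (-0.24, SE 0.58, and -0.11 without that mouse), and Ttr, which encodes transthyretin (-0.24, SE 0.30, and -0.07 without it). Being moderated, the SE of Alb does not measure the spread of its own counts alone. Of the genes for fatty acid oxidation, in which FOXA2 has been placed, Cpt1a had -0.12 (SE 0.13) and Acadm -0.31 (SE 0.16). Onecut2, another liver factor, had 0.21 (SE 0.12). Without replicate 1, Tat, which encodes tyrosine aminotransferase, was the only gene of this list called (log2 fold change -0.74, lower), and Crtc2 was not. Of all genes tested, 2.86% were called higher and 3.07% lower without that mouse. Acadm was called lower without control replicate 3 or AF1 peptide replicate 2, and with libraries rescaled to equal totals.

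The genes whose pattern over the 8 mice was most like that of Foxo1, by Pearson's r of log2 counts among the 12442 genes whose normalized counts averaged 50 or more, were Phf20 (0.977), Gm33862 (0.975), Pgpep1l (0.973), Nsun5 (0.967) and Zfp707 (0.967). The mice share their groups and libraries, and these values are a description. Phf20, which encodes a chromatin reader, held 192, 163, 168 and 179 in control and 298, 223, 207 and 204 in AF1 peptide-treated mice, with replicate 1 highest as for Foxo1. In this order of 12442 genes, Foxo3 ranked 567, Foxo4 2755, Foxa2 3595, Foxa3 4389 and Foxa1 11185. These ranks depended on AF1 peptide replicate 1. Without it, in a comparison added after the data were seen, Foxa2 ranked 153, Foxo3 1673, Foxa1 2210, Foxo4 3728 and Foxa3 9482, and the r of the 5 genes named above was 0.893 (Nsun5) to 0.942 (Gm33862).

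The reads behind these values numbered 360 to 999 per mouse for Foxo1 and 147 to 1208 for the relatives. Foxo1 overlaps 2 other gene models in the annotation, Gm20402 on the opposite strand, which reaches a Foxo1 exon, and Gm38034 on the same strand. Neither was a row of the table, and whether the counting used strand is not given in the sources used here. Of the 50-base words of Foxo1 transcripts, 0.0696% are shared with another gene's transcripts, and 0% of those of the 5 relatives are.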

How the data were processed

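Liver mRNA of 4 control and 4 AF1 peptide-treated male db/db mice was sequenced with 1 stranded library per mouse. Per the submitters' processing notes, reads were trimmed with Trim Galore 0.6.7, aligned to mm39 with HISAT2 and sorted with SAMtools 1.17, and the authors counted reads per gene with GenomicAlignments. They deposited normalized counts, a signal equal to the reads of a gene divided by 1 size factor per library. The annotation, the use of strand and the handling of multi-mapped reads are not given in the sources used here.

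All 172256 deposited values (100%) came out as whole reads within 0.05. The log2(count + 1) of 15989 genes (mean over all mice of 10 normalized counts or more) was compared between groups with limma 3.58.1 (moderated variance, intensity trend) in R 4.3.3. A gene was called when its change exceeded 1.3-fold with an unadjusted p value below 0.05, and Benjamini-Hochberg adjusted p values were given over all genes tested. On this scale, changes of low genes come out too small. Correlations used exact permutation tests in Python 3.11.15. The members, gene lists and tests were chosen with earlier results of these data known. Genes were named if they were members, called, among the 3 smallest p values of a list, or listed as anchors of the pathway. Some genes counted in the lists are not reported here by name. Exon lengths and shared words came from GENCODE M21 and promoters from RefSeq, both on GRCm38, which is not the build of the alignment, so no coordinate of a read count is given.

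Groups and replicate numbers came from the sample labels. No source says more of separate housing or litters, so p values measure the spread between these mice. Within groups, chi-square statistics of the reads were 15.7 to 354 per degree of freedom, and no library duplicated another. Alternatives were pseudocounts of 0.5 and 5, no filter, rescaling to equal totals or by TMM factors, the replicate block, each gene's own variance, no fold threshold, the recovered reads in edgeR 4.0.16 and in DESeq2 1.42.0, and each mouse left out in turn. The scripts were tested on simulated data.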

Additional observations from a re-analysis of the deposited data

Results flagged for a closer look

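In groups of 4 mice, 96 sets of values were searched for a highest or lowest mouse far from the rest, by the gap to its nearest neighbour over the whole range of the group (Dixon's 95% critical value). Chance gives about 1 in 20, or 4.8 sets, and 11 exceeded the value, 4 of them for AF1 peptide replicate 1. The sets come from the same mice, and the ratios share their Foxo1 counts. They are thus not independent, and nothing is read from 11 beside 4.8.

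The ratios of Foxo1 to its relatives accounted for 4 of the 11. The gap was 0.855 of the range for AF1 peptide replicate 1 as the highest in Foxo1 over Foxa1, and 0.858 for the same mouse as the highest in Foxo1 over Foxa2. It was 0.833 for AF1 peptide replicate 2 as the lowest in Foxo1 over Foxo3, the mouse whose Foxo3 count of 1052 was high beside a Foxo1 count of 658. It was 0.87 for control replicate 2 as the highest in Foxo1 over Foxa2, the control with the lowest Foxa2 count (623).

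Among the list genes, G6pc was lowest in control replicate 4 (0.8294), Pdk4 highest in control replicate 3 (0.834), Insr highest in AF1 peptide replicate 2 (0.838), Ttr lowest in AF1 peptide replicate 1 (0.898) and Cpt1a highest in control replicate 4 (0.918). Of the library measures, total reads were highest in control replicate 1 (0.857), and the first principal component was highest in AF1 peptide replicate 1 (0.843). For genes these gaps were taken on log2 counts, and on that scale none of the 6 members was marked. In unlogged counts, Foxo1 of AF1 peptide replicate 1 was 932, beside 608 to 659.8 in the other 3 mice of its group.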

How the results depend on the processing

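Under 16 alternatives each, the log2 fold change was 0.34 to 0.55 for Foxo1, 0.16 to 0.34 for Foxo3, 0.02 to 0.18 for Foxo4 and 0.17 to 0.32 for Foxa2, with no change of sign. It was -0.25 to 0.07 for Foxa1 (negative in 15) and -0.25 to 0.05 for Foxa3 (negative in 14). Rescaling to equal totals moved the median of all genes to -0.10, Foxo1 to 0.39 and Foxo4 to 0.02, and called 122 genes higher and 602 lower in place of 286 and 304, the cause of which was not tested. The call of the FOXA network list was then lower (Acadm) in place of higher (Crtc2). With no filter, which adds genes, 435 were higher, 459 lower and 2 other forkhead genes called (Foxc2 and Foxh1, with means under 6 counts). Each gene's own variance called 1 FOXO target (Sesn3, lower), 0 FOXA network genes and 197 genes lower. No fold threshold gave 1 FOXO target (Atg14), 506 genes higher and 484 lower.

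With 1 mouse left out in turn, which leaves fewer samples, 0 to 2 FOXO targets, 0 to 3 FOXO regulators, 0 to 2 FOXA network genes and 0 to 1 other forkhead genes were called, with 198 to 457 genes higher and 173 to 491 lower. The highest counts of all genes came without AF1 peptide replicate 1 and the lowest, 198 and 173, without control replicate 2. Mice with the same replicate number deviated together with r = 0.235, 0.0238, 0.217 and -0.0640, and 4 of 8 mice correlated best with their own number. The mean r was 0.103 for same-numbered and -0.0342 for differently numbered mice. Whether mice of the same number share more than that number is not given in the labels and was not tested. The replicate block left the log2 fold change of Foxo1 at 0.48, called 1 FOXA network gene and 0 of the other lists, and gave 341 genes higher and 392 lower. An adjusted p value under 0.05 was reached by 0 genes in each limma or edgeR alternative and by 3 with DESeq2, and 990 genes had an unadjusted one in limma. The Foxo1 correlations had 0 adjusted p values under 0.05 with and without the 2 mice.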
